A study of Mus musculus with 54 samples.

Results

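Livers in which BMAL1 had been restored in the liver alone were set against wild-type livers at the start of the light phase. BMAL1, the product of the gene Arntl, binds DNA as a core activator of the circadian clock. The comparison took the 3 Liver-RE and the 3 WT livers harvested at ZT0, 6 of the 54 samples of the series; ZT counts hours from lights on. Of the 18079 genes in the deposited table, 11710 had a mean of at least 0.5 FPKM (fragments per kilobase of gene, scaled to the depth of the library) over these 6 livers and were tested. All mice were female, of the C57BL/6J strain background and 8 to 12 weeks old, with free access to normal chow under 12 h of light and 12 h of dark. WT mice carried no change named in the labels. Liver-RE mice, whose genotype is given as Liver-RE BMAL1-stop-FL, lacked BMAL1 except where it was reconstituted in the liver; the Cre line that did this is not given in the sources used here, so which liver cells regained BMAL1 is not stated. KO mice, knocked out for BMAL1, are named below only to place single values. The series' design gives n = 3 per genotype and time without saying that each library is its own mouse, so p-values measure the spread between these libraries, which may be technical.

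As background, the clock of a liver cell is a loop in which BMAL1 and its partner CLOCK switch on their own repressors, the PER and CRY proteins, through E-box sequences. The same pair drives the receptors REV-ERB alpha and beta (Nr1d1 and Nr1d2), which repress Arntl, and output factors such as DBP, TEF and HLF, which act through D-box sequences. In WT liver Arntl RNA is high when Dbp and Nr1d1 RNA is low. A clock that runs ahead in one group would therefore be read at a single harvest time as a difference in level, and the 5 other harvest times are needed to separate it from a difference that is there all day.

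The 36 WT and Liver-RE libraries had estimated depths of 25700000 to 42700000 reads, taken from the smallest step between low values, and the 6 ZT0 libraries 26900000 to 38900000 reads. Albumin, the most abundant protein product of hepatocytes, took 8.16% to 10.5% of the summed values in these 6. Correlations between libraries at ZT0 were 0.972 to 0.991 within a genotype and 0.968 to 0.983 between genotypes. Hepatocyte markers dominated: 14 summed to 59430 to 74720 FPKM in the WT livers and 48398 to 58482 FPKM in the Liver-RE livers. Pancreas acinar markers summed to at most 7.15 FPKM, and lymphocyte and neutrophil markers to at most 9.10 and 8.21 FPKM. Against the other livers of their own group, 2 libraries of other harvest times lay more than 6 h away in clock-gene time, namely WT ZT8 replicate 2 and Liver-RE ZT20 replicate 1. A reading from 383 other genes differed. Against harvest time it put WT ZT8 replicate 2 at -2.1 h. It put Liver-RE ZT20 replicate 1 at 0 h, but replicates 2 and 3 at 8.9 and 8.4 h. Among others, Liver-RE ZT16 replicate 1 came out at -8.6 h. The 2 libraries picked by clock-gene time enter the spread per gene and the rhythm fits, so the counts that rest on these are also given without them.

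Arntl, the gene that was knocked out and restored, was measured at 12.0, 11.6 and 11.3 FPKM in the 3 WT livers and at 10.6, 7.75 and 1.91 FPKM in the 3 Liver-RE livers at ZT0. The WT livers were alike, and the Liver-RE livers ran from almost the WT level to 1 far below it. The mean difference was -0.92 ± 0.49 log2 units (SE, n = 3 and 3) and did not pass (adjusted p = 0.491). Here and throughout, differences are Liver-RE minus WT on log2(FPKM + 1), and adjusted p-values come from limma with Benjamini-Hochberg adjustment over all 11710 genes, two-sided, with a threshold of 0.05. KO livers at ZT0 still had 6.26, 8.33 and 6.50 FPKM of Arntl, so its level does not tell a knocked-out from a restored liver. Over ZT4 to ZT20 Arntl was rhythmic in Liver-RE, with a fitted peak-to-trough ratio of 4.73 and a peak at ZT17.4, against 9.92 and ZT22.9 in WT.

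At ZT0, 23 of the 11710 genes passed the threshold (0.196%). In Liver-RE 7 were higher (0.0598%) and 16 lower (0.137%). In all 23 the 3 values of one genotype did not overlap the 3 of the other, beside 4.3% of all genes for higher values and 15% for lower ones. The 23 were called on these same values, so their separation adds no support. The excess of lower genes depends on the scaling: after quantile normalization 25 were higher and 18 lower, and after rescaling without the 20 highest genes 15 were higher and 8 lower. The median difference over all genes was -0.06 as deposited, 0.00 after quantile normalization and -0.02 after the rescaling. At an unadjusted p under 0.05, 295 genes were higher (2.52%) and 1060 lower (9.05%). The call ends between Cpn2, the last of 6 genes at an adjusted p of 0.0483, and Ifit1 at 0.0551. At the other harvest times the same contrast called 25 genes at ZT4, 6 at ZT8, 352 at ZT12, 299 at ZT16 and 65 at ZT20. These contrasts use different livers but share 1 estimate of the spread, and the differences between the counts were not tested.

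The 23 genes were split by what the other 30 livers showed. In 10 genes, 4 higher and 6 lower, the average difference over ZT4 to ZT20 passed in the same direction and the sign was the same at all 6 times. That average alone called 700 of the 11710 genes (5.98%), 124 higher (1.06%) and 576 lower (4.92%). No called gene met the rule for an earlier phase, which asked for a 24 h rhythm called in both genotypes over ZT4 to ZT20, an earlier peak in Liver-RE, and a WT curve that, moved to the Liver-RE peak time, gave at least 0.5 of the ZT0 difference. At an unadjusted p under 0.05 that rule took 31 of 1355 genes (2.29%), and the all-times rule 165 (12.2%). In 6 called genes, 1 higher and 5 lower, the rhythm was called in WT and not in Liver-RE, and 7 fell under none of these. The rhythm was called in 2116 genes in WT (18.1%) and in 136 in Liver-RE (1.16%), so few genes could have met the phase rule. Without WT ZT8 replicate 2 and Liver-RE ZT20 replicate 1 these counts were 2686 and 159, and with 1 library of ZT4 to ZT20 left out at a time 1398 to 2673 and 55 to 210.

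**Figure D1:**
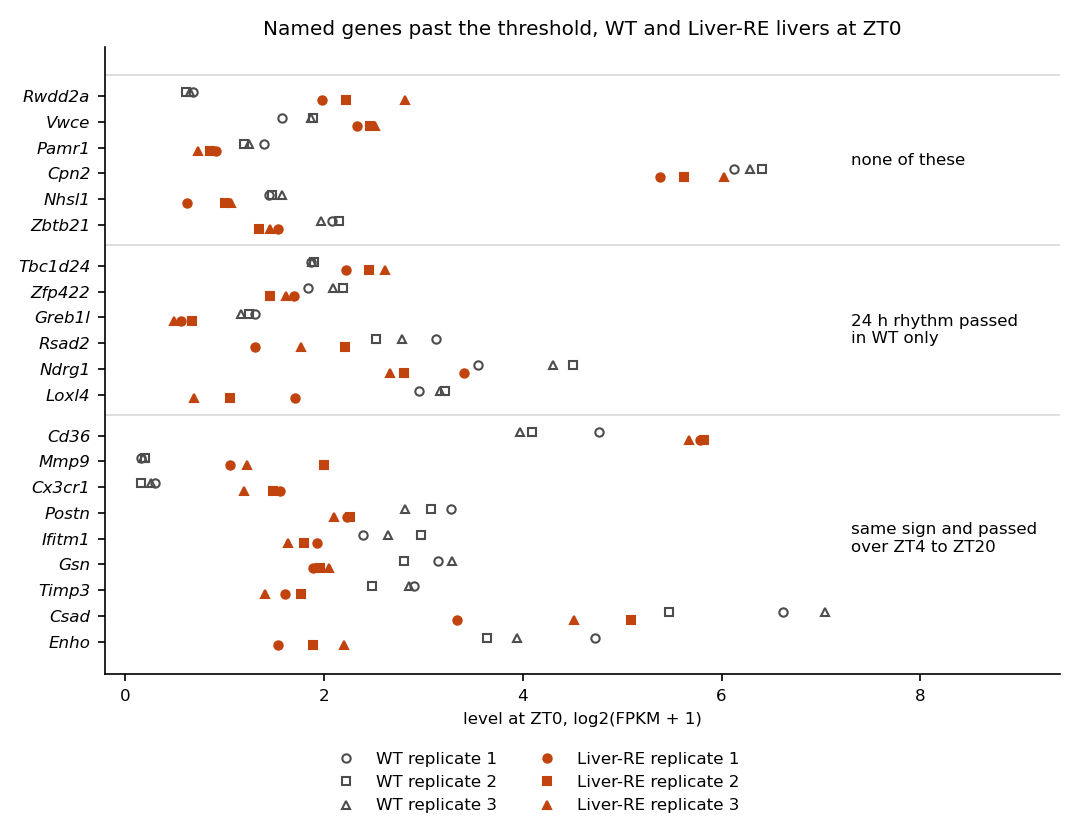
Level of each of the 21 named genes past the threshold in the 6 ZT0 livers, on log2(FPKM + 1). Open grey symbols are WT and filled red symbols Liver-RE livers, with 1 symbol shape per replicate number. The labels do not say that these numbers pair livers. The genes were called on these same values, and the groups do not overlap in any of them: Cd36 lay at 14.7 to 26.3 FPKM in WT and 50.2 to 55.6 FPKM in Liver-RE.

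Genes that differed all day held a fatty acid transporter, extracellular matrix proteins and a secreted liver peptide. Cd36, which takes up long-chain fatty acids, was at 26.3, 16.1 and 14.7 FPKM in WT and at 54.1, 55.6 and 50.2 FPKM in Liver-RE. It rose by 1.48 ± 0.25 at ZT0 (adjusted p = 0.00475) and by 1.15 ± 0.11 on average over ZT4 to ZT20. In Liver-RE its mean stayed between 45.4 and 53.8 FPKM except at ZT16, where it was 28.5 ± 6.23 (SD, n = 3) against 20.2 ± 5.17 in WT. The other measured members of a list of 13 lipid uptake and droplet genes did not pass. Among them Fitm1, a lipid droplet protein, was at 1.83, 1.81 and 1.71 FPKM in WT and 3.20, 6.43 and 6.61 FPKM in Liver-RE (1.15 ± 0.34, adjusted p = 0.15).

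Mmp9, a gelatinase that cleaves matrix collagen, stood at 0.122, 0.154 and 0.131 FPKM in WT and 1.09, 3.00 and 1.35 FPKM in Liver-RE. It rose by 1.25 ± 0.23 (adjusted p = 0.0101), with 1.18 ± 0.10 over the other times. Cx3cr1, the fractalkine receptor of monocytes and macrophages, was at 0.236, 0.120 and 0.204 FPKM in WT against 1.95, 1.803 and 1.30 FPKM in Liver-RE. It rose by 1.17 ± 0.17 (adjusted p = 0.000585) and by 0.94 ± 0.07 over the other times. Both are low-level genes, whose change the added 1 makes look smaller than the ratio of the values. Of the 14 markers of Kupffer cells and macrophages 13 were lower at ZT0, beside 7512 of all 11710 genes, and 0 were called by limma. Their median was -0.43, beside -0.06 for all genes, and their summed level was 363 to 416 FPKM in WT and 230 to 364 FPKM in Liver-RE. Neutrophils also carry Mmp9, and 7 of 10 neutrophil markers, Ly6g and Mmp8 among them, were under the filter, with a summed level of 2.85 to 8.21 FPKM in WT and 3.71 to 8.17 FPKM in Liver-RE. The part of these cells in the higher Mmp9 and Cx3cr1 was not tested. In whole liver, fewer cells of a type and less RNA per cell cannot be told apart.

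Among the genes lower all day, Timp3, a secreted inhibitor of matrix metalloproteinases, was at 6.52, 4.60 and 6.26 FPKM in WT and 2.05, 2.42 and 1.66 FPKM in Liver-RE. It fell by 1.15 ± 0.18 at ZT0 (adjusted p = 0.00223) and by 1.32 ± 0.08 over the other times. The gap was not of one size: WT levels went from 4.76 ± 0.44 at ZT4 to 11.3 ± 1.13 FPKM at ZT12 with a called rhythm, while every Liver-RE mean stayed between 2.05 and 3.99 FPKM. So in absolute terms ZT0 and ZT4 were the times of the smallest gap. The gene lies at chr10:86300412-86349505 (+ strand, GRCm38.p6), inside Syn3, which is read from the opposite strand. Gsn, the actin-severing protein gelsolin, was at 7.90, 5.98 and 8.81 FPKM in WT and 2.72, 2.91 and 3.14 FPKM in Liver-RE, a fall of 1.11 ± 0.19 (adjusted p = 0.00499). Postn, the matrix protein periostin, was at 8.74, 7.44 and 6.06 against 3.70, 3.81 and 3.31 FPKM, a fall of 0.86 ± 0.19 (adjusted p = 0.0483). Of 14 stellate cell and fibroblast markers, 12 were lower, beside 7512 of all 11710 genes, and 0 were called. Their summed level was 201 to 208 FPKM in WT and 154 to 173 FPKM in Liver-RE, without overlap. The sums of hepatocyte markers, interferon genes and acute phase genes were also lower in Liver-RE without overlap. The part of these cells in the lower matrix genes was not tested.

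Enho encodes adropin, a peptide secreted by the liver. Its level was 25.5, 11.5 and 14.4 FPKM in WT and 1.91, 2.71 and 3.62 FPKM in Liver-RE, and it fell by 2.22 ± 0.38 (adjusted p = 0.00475), the largest fall among the 16 lower genes past the threshold. Over the other times the fall was 1.37 ± 0.17. Csad, which makes hypotaurine on the way to taurine, was at 97.2, 43.4 and 130 FPKM in WT and 9.09, 33.2 and 21.9 FPKM in Liver-RE. It fell by 2.06 ± 0.45 (adjusted p = 0.0483) and by 1.54 ± 0.20 over the other times. Csad overlaps Zfp740 on the opposite strand (chr15:102176997-102205052, GRCm38.p6), and whether the counting used strand is not given in the sources used here. Enho, Loxl4 and Dbp likewise overlap Dnaic1, R3hcc1l and Sphk2 on the opposite strand. Ifitm1, a membrane protein of the interferon-induced transmembrane family, was at 4.27, 6.88 and 5.24 against 2.81, 2.50 and 2.12 FPKM, a fall of 0.88 ± 0.17 (adjusted p = 0.0201). For the 9 named genes of this class the ZT0 difference was not shown to depart from the average of the other times, with adjusted p-values between 0.678 for Enho and 0.98 for Mmp9.

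The KO livers at ZT0 were not alike across these genes. Cd36 was at 43.1, 61.5 and 70.2 FPKM in KO, Cx3cr1 at 1.13, 1.42 and 0.944 FPKM, and Timp3 at 3.88, 2.59 and 2.93 FPKM. These values lie outside the WT range on the side of Liver-RE, as do those of Mmp9 (0.415, 2.88 and 1.498 FPKM), Gsn (3.96, 3.04 and 4.05 FPKM) and Enho (4.77, 8.33 and 1.95 FPKM). Csad was at 43.9, 173 and 94.4 FPKM in KO, which overlapped the WT values. Postn at 5.35, 9.37 and 4.28 FPKM and Ifitm1 at 2.61, 5.90 and 2.18 FPKM overlapped theirs as well. No test was made of these groups against each other.

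**Figure D2:**
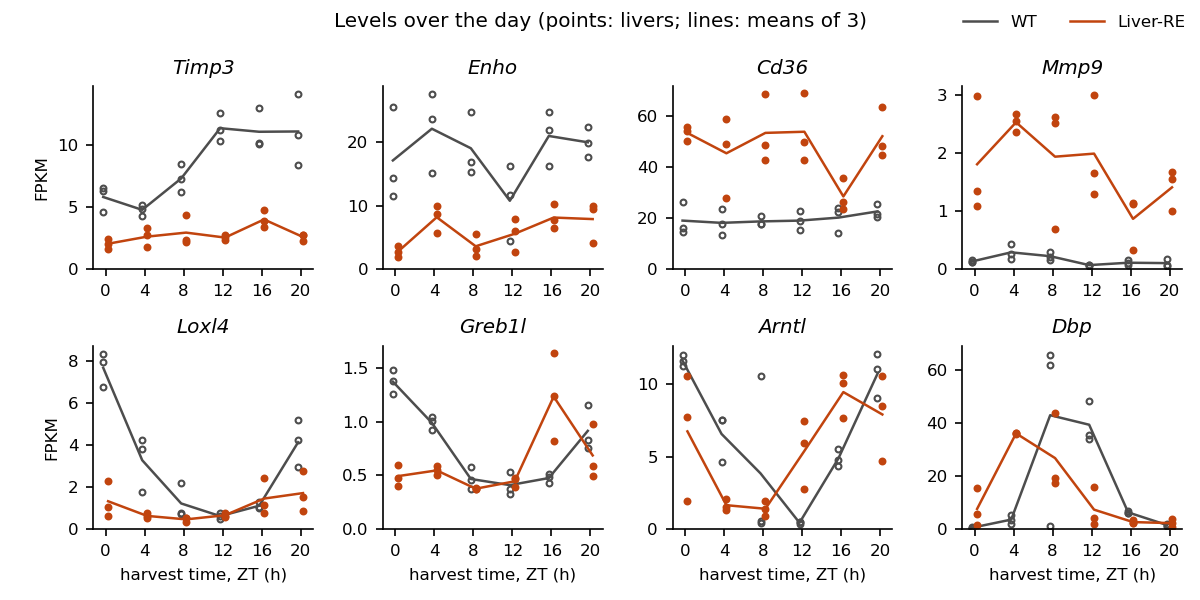
FPKM against harvest time for 8 genes, with 1 point per liver, WT in open grey and Liver-RE in filled red, and lines through the means of 3. The means of Timp3, Enho, Cd36 and Mmp9 are apart on the same side at all 6 times. Those of Loxl4 are apart at ZT0 and ZT4 and meet by ZT12. Those of Greb1l are lower in Liver-RE at ZT0 and ZT4 and higher at ZT16. Arntl and Dbp run earlier in Liver-RE.

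In 6 genes the WT rhythm was called and the Liver-RE rhythm was not. Loxl4, a copper-dependent oxidase that cross-links collagen, had the smallest adjusted p together with Cx3cr1. Its level was 6.75, 8.33 and 7.97 FPKM in WT and 2.28, 1.07 and 0.621 FPKM in Liver-RE, and it fell by 1.96 ± 0.27 (adjusted p = 0.000585). WT means went from 7.68 ± 0.83 FPKM at ZT0 to 0.62 ± 0.15 at ZT12, where Liver-RE had 0.66 ± 0.10 (SD, n = 3). Its average difference over the other times also passed (-0.53 ± 0.12), but the sign was the same at 4 of the 6 times. The Liver-RE rhythm missed the threshold (adjusted p = 0.06) with a fitted peak 4.02 h earlier, and moving the WT curve by that much gave -0.59 of the -1.96 measured. Ndrg1, a hypoxia- and stress-responsive gene, was alike: 10.7, 21.7 and 18.8 FPKM in WT against 9.61, 5.98 and 5.33 in Liver-RE, a fall of 1.16 ± 0.25 (adjusted p = 0.0467), with a Liver-RE rhythm at an adjusted p of 0.0502.

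Greb1l, related to a gene that responds to estrogen, was at 1.48, 1.38 and 1.25 FPKM in WT and 0.475, 0.596 and 0.405 FPKM in Liver-RE at ZT0, a fall of 0.67 ± 0.11 (adjusted p = 0.00223). At ZT16 the order was the other way, with 0.47 ± 0.04 FPKM in WT and 1.23 ± 0.41 in Liver-RE (SD, n = 3). It was the 1 gene of 11710 (0.00854%) whose ZT0 difference was shown to depart from the average of the other times, by -0.66 (adjusted p = 0.0427), and in 22 of the 36 settings that leave out 1 library no gene was. Rsad2, an antiviral enzyme, fell by 1.05 ± 0.23 (adjusted p = 0.0483) from 7.74, 4.74 and 5.91 FPKM in WT to 1.47, 3.62 and 2.40 FPKM in Liver-RE, and averaged 0.05 over the other times. Zfp422, a zinc finger protein, fell by 0.45 ± 0.09 (adjusted p = 0.021). Tbc1d24, a protein of vesicle traffic, rose by 0.54 ± 0.12 (adjusted p = 0.0483). WT livers had 2.66, 2.75 and 2.68 FPKM of Tbc1d24 and Liver-RE livers 3.66, 4.48 and 5.13 FPKM, whereas at ZT12 WT was higher, with 4.70 ± 0.17 against 3.09 ± 0.17 FPKM.

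Among the genes in no class, Rwdd2a was the largest rise at ZT0. It was at 0.610, 0.533 and 0.580 FPKM in WT and 2.96, 3.69 and 6.03 FPKM in Liver-RE, a rise of 1.69 ± 0.31 (adjusted p = 0.0088). At ZT12 to ZT20 its Liver-RE means were 0.50 to 0.60 FPKM, within the WT range of means of 0.49 to 0.85 FPKM over the day. Vwce, a secreted protein with von Willebrand factor C domains, was at 1.98, 2.71 and 2.67 against 4.06, 4.53 and 4.72 FPKM, a rise of 0.66 ± 0.11 (adjusted p = 0.00475). The Vwce difference was 0.27 at ZT4, -0.11 at ZT12 and -0.28 at ZT20. Nhsl1 fell by 0.61 ± 0.13 (adjusted p = 0.0381), Cpn2, a subunit of carboxypeptidase N made in liver, by 0.60 ± 0.13 (0.0483) and Pamr1 by 0.44 ± 0.09 (0.0358). The remaining 2 called genes are known by clone names: 4833411C07Rik, lower, in no class, and C730002L08Rik, higher at all times, which overlaps Aldh1a1.

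Zbtb21, a zinc finger repressor of transcription, was the 1 called gene with a rhythm called in both genotypes. It was at 3.23, 3.45 and 2.94 FPKM in WT and 1.91, 1.55 and 1.75 FPKM in Liver-RE, a fall of 0.62 ± 0.13 (adjusted p = 0.0467). Its fitted peak was at ZT21.0 in WT and ZT16.9 in Liver-RE, 4.12 h earlier. Moving the WT curve to that peak gave -0.29, just under the 0.5 share that the rule asked for, so the gene is in no class. Its promoter holds 1 canonical E-box, CACGTG in capitals below, at -45 from the RefSeq start site (chr16:97962573-97962872, - strand, GRCm38.p6), shown because no other called gene was rhythmic in both groups.

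Zbtb21 promoter: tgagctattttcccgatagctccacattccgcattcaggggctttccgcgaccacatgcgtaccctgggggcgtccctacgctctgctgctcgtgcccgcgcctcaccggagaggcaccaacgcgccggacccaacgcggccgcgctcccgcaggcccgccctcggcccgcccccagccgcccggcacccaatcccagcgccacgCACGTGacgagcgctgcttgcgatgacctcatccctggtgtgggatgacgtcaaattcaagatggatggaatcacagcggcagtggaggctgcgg

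An earlier phase was read from genes that were rhythmic in both genotypes, most of which did not pass at ZT0. A rhythm was called in both genotypes for 103 genes, and the fitted peak of all 103 was earlier in Liver-RE, with a median shift of -4.70 h (quartiles -5.62 and -3.50 h as Liver-RE minus WT). These fits used no ZT0 liver. When the WT curve of each gene was moved to its Liver-RE peak time, the sign of the measured ZT0 difference was the one so given for 91 of 103 genes (88.3%). In 79 the sign matched and the given difference was at least 0.5 of the measured one. That count has no upper bound and is not a match in size: it includes Bhlhe40, with 0.70 given and 0.03 measured. Over these genes, which share libraries and are not independent, Pearson's r was 0.845 and Spearman's rho 0.880, given as a description. At an unadjusted p under 0.05 were 37 of the 103 (35.9%), beside 11.6% of all genes, and 1 was called. Their median absolute difference was 0.30, beside 0.12 for all genes. Without Liver-RE replicate 3 the sign matched for 77 of 103 (74.8%) with r = 0.618, while leaving out any other single ZT0 liver gave 83 to 94.

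The number of genes rhythmic in both genotypes moved with the libraries of the other harvest times, all settings chosen after seeing the data. Without WT ZT8 replicate 2 there were 178 such genes, all with an earlier peak in Liver-RE, and the sign at ZT0 matched for 142 (79.8%). Without Liver-RE ZT20 replicate 1 there were 61, of which 60 peaked earlier and 54 matched in sign (88.5%). Without both there were 131, of which 130 peaked earlier and 108 matched (82.4%, r = 0.805). Quantile normalization gave 144 genes, 141 of them earlier, with 122 matches, and the rescaling without the 20 highest genes gave 110, of which 108 were earlier and 97 matched. With each of the 30 libraries of ZT4 to ZT20 left out in turn there were 48 to 178 genes, and the count changed by over 1.5 times in 13 settings. It fell to 66 and 67 without WT ZT4 replicates 2 and 3, 68 without WT ZT8 replicate 3 and 62 without WT ZT12 replicate 1. It fell to 48 and 61 without Liver-RE ZT4 replicates 1 and 2, 53 without ZT8 replicate 2, 56 without ZT12 replicate 3, 52 and 49 without ZT16 replicates 2 and 3, and 61 and 65 without ZT20 replicates 1 and 2 of Liver-RE. Over the 30 settings the sign matched for 79.7% to 97.9% of the genes, r was 0.784 to 0.883, the median shift was -5.18 to -4.26 h, and at most 2 genes of a setting did not peak earlier.

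**Figure D3:**
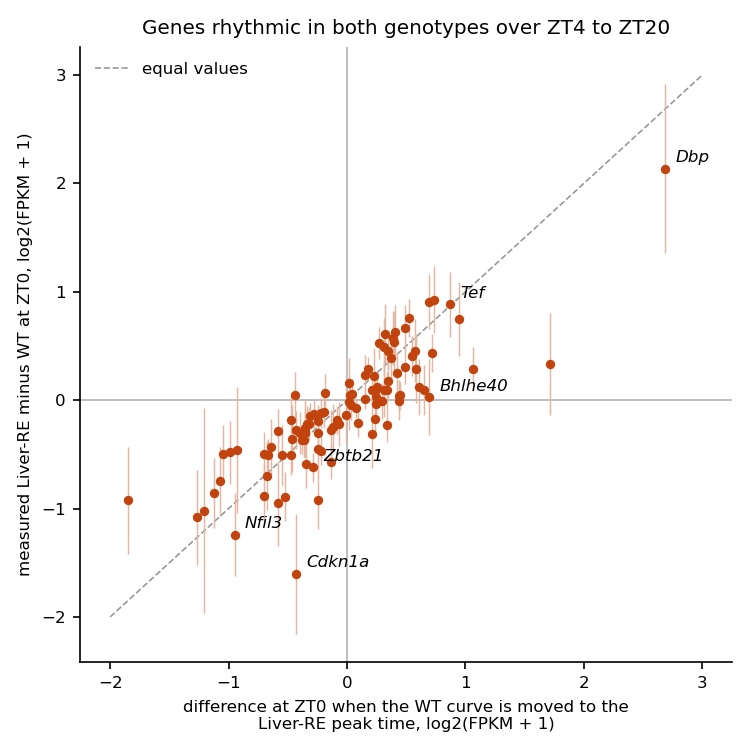
For the 103 genes rhythmic in both genotypes over ZT4 to ZT20, the measured Liver-RE minus WT difference at ZT0 (vertical, with its SE) against the difference given by moving the WT curve to the Liver-RE peak time (horizontal), both on log2(FPKM + 1). The sign matched for 91 genes, and Dbp lies at 2.14 measured and 2.68 given.

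The clock genes themselves gave large differences with large spread. Of 39 listed, 37 were measured and 0 were called by limma, with 8 higher and 5 lower at an unadjusted p under 0.05, beside 2.52% higher and 9.05% lower of all genes. Those higher included targets of BMAL1 and CLOCK. Nr1d1 was at 0.687, 0.160 and 1.84 FPKM in WT and 6.01, 8.38 and 5.61 FPKM in Liver-RE (2.10 ± 0.67, adjusted p = 0.187), and Nr1d2 at 4.13, 2.47 and 4.10 against 8.09, 15.2 and 17.1 FPKM (1.63 ± 0.50, adjusted p = 0.167). Neither overlapped between groups. Dbp was at 0.764, 0.413 and 0.388 FPKM in WT and 1.61, 5.83 and 15.4 FPKM in Liver-RE (2.14 ± 0.78, adjusted p = 0.245). Per2, a repressor of the loop, was at 1.43, 1.91 and 0.969 against 2.52, 2.64 and 6.47 FPKM, and Tsku, a secreted protein with a strong liver rhythm, at 6.87, 4.81 and 2.67 against 14.5, 13.0 and 34.5 FPKM. Tef, an output factor, was at 7.24, 6.78 and 5.88 FPKM in WT and 6.69, 13.4 and 24.03 FPKM in Liver-RE, where replicate 1 was at the WT level.

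Lower values were seen for 3 genes with a fitted WT peak in the night, from ZT17.3 for Lonrf3 to ZT21.7 for Nfil3. Nfil3, which opposes DBP at D-boxes, was at 14.1, 13.4 and 18.2 FPKM in WT and 9.01, 6.85 and 3.04 FPKM in Liver-RE (-1.24 ± 0.38, adjusted p = 0.163). Cry1, a late repressor of the loop, was at 9.98, 10.1 and 7.47 against 5.18, 4.19 and 3.46 FPKM (-0.95 ± 0.39, adjusted p = 0.314). Lonrf3 was at 3.43, 4.48 and 4.43 against 2.11, 2.07 and 1.03 FPKM. In none of these 3 did the groups overlap. Of the 37 measured clock genes 8 were lower and 7 higher without overlap, beside 15% and 4.3% of all genes. Npas2, at -0.59 ± 0.22, was also among the 5 lower at an unadjusted p under 0.05, but its groups overlapped. From the 37 measured clock genes 11 were picked by hand and plotted by library, so the ranking of the livers holds for these alone. Of the 11 genes, 8 (Arntl, Dbp, Tef, Nr1d2, Nfil3, Cry1, Per2 and Lonrf3) had Liver-RE replicate 3 farthest from the WT mean and replicate 1 nearest. The other 3 ranked the livers otherwise: replicate 2 was farthest for Nr1d1, with replicate 3 nearest, and for Per3, and replicate 2 was nearest for Tsku. All 8 clock kinases and ubiquitin factors measured had differences between -0.27 and 0.19, and none was at an unadjusted p under 0.05.

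**Figure D4:**
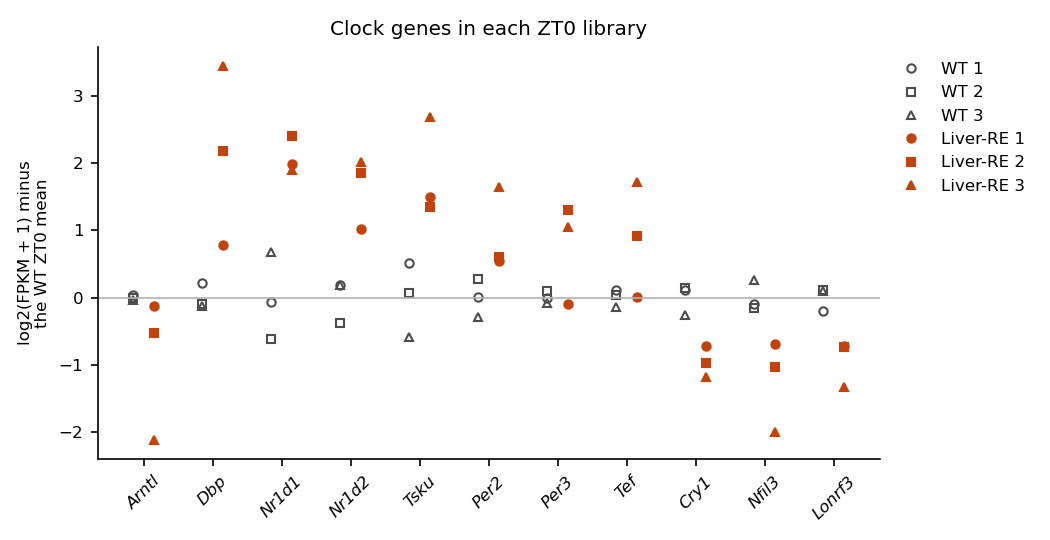
Level of 11 clock genes in each ZT0 liver on log2(FPKM + 1), minus the mean of the 3 WT livers; open grey symbols are WT and filled red symbols Liver-RE, by replicate number. Liver-RE replicate 3, the triangle, reaches 3.44 for Dbp and -2.12 for Arntl, while replicate 1 is at 0.79 and -0.13.

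A clock time was read for each liver by placing its 28 rhythmic clock genes on the WT curves of ZT4 to ZT20. The WT livers of ZT0 were placed at 20.9, 21.1 and 22.7 h and the Liver-RE livers at 3.6, 5.2 and 8.3 h. From 383 other genes with a WT rhythm of at least 2-fold the WT livers came out at 4.0, 4.4 and 3.4 h and the Liver-RE livers at 4.5, 5.2 and 7.8 h. The groups did not overlap by either reading, but the gap was wide by the first and narrow by the second. ZT0 lies outside the times that built the curves, and neither reading placed the WT livers at their harvest time. Against ZT0 they were off by -3.1, -2.9 and -1.3 h by the first and by 4.0, 4.4 and 3.4 h by the second. The size of the gap is therefore not settled by either reading.

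Set against WT livers of each harvest time, the Liver-RE livers of ZT0 differed least from WT at ZT0 and ZT4. The number of genes called was 23 against WT ZT0, 35 against ZT4 (0.299%), 149 against ZT8 (1.27%), 2262 against ZT12 (19.3%), 748 against ZT16 (6.39%) and 640 against ZT20 (5.47%). These 6 counts share the Liver-RE livers. After quantile normalization they were 43, 64, 84, 1711, 1123 and 971 in the same order. By count the Liver-RE livers of ZT0 were nearer to WT livers of ZT0 and the next harvest than to WT livers of the previous harvest at ZT20. Such counts are not given for the WT livers of ZT0, which the 383 other genes placed at 4.0, 4.4 and 3.4 h. Whether the order is particular to Liver-RE was therefore not tested. The difference of Nr1d1 was 2.10 against WT ZT0 and -0.46 against WT ZT4, and that of Arntl -0.92 and -0.16.

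Promoters of the clock genes were searched for the E-box CACGTG and for the D-box letters TTATGNAA on both strands, in 250 bases before and 50 after each RefSeq start site (GRCm38.p6). An E-box was in 6 of the 28 clock genes with a promoter sequence (21.4%), in 12 of the 78 genes rhythmic in both genotypes (15.4%) and in 12.1% of the 9061 tested genes with one. A D-box was in 3 of 28 (10.7%), 4 of 78 (5.13%) and 2.75%. None of the 7 promoters of genes that differed all day held either one, and of 10 promoters of the other called genes 2 held an E-box and 1 a D-box. These sets are too small to be told from the share of all genes. A match is a string of letters and not a binding site. Both kinds are shown for a pair of genes whose 3 Liver-RE livers ran from the WT level upward, Tef with 1 E-box at -127 (chr15:81802423-81802722, + strand) and Per3, a repressor of the loop at 0.845, 0.981 and 0.750 FPKM in WT and 0.734, 3.59 and 2.84 FPKM in Liver-RE, with 2 D-boxes (chr4:151044616-151044915, - strand). Capitals mark the matches.

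Tef promoter: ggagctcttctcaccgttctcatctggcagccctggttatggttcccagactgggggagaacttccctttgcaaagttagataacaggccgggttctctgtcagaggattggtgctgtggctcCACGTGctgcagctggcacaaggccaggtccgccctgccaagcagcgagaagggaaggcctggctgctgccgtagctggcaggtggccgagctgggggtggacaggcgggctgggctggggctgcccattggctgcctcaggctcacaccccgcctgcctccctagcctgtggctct

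Per3 promoter: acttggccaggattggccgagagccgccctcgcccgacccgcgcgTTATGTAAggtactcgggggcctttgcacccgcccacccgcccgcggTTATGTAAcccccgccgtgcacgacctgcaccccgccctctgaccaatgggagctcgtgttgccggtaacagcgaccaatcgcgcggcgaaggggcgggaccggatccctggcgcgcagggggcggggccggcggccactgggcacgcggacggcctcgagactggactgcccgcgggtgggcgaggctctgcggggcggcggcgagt

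The count under the phase rule moved with the 2 libraries away from their groups in clock-gene time. Without WT ZT8 replicate 2 and Liver-RE ZT20 replicate 1, a setting chosen after seeing the data, limma called 17 genes higher and 34 lower at ZT0, the 23 among them. The all-times class then held 5 higher and 8 lower genes, and 8 genes met the phase rule, among them Dbp (adjusted p = 0.0482), Nr1d1 and Nr1d2 (both 0.0103), Nfil3 (0.0220), Zbtb21, Rfxank and Pdhb. Pdhb, a pyruvate dehydrogenase subunit, was at 31.5, 42.3 and 35.5 against 74.3, 58.8 and 53.8 FPKM. In this setting 20 genes departed at ZT0 from the average of the other times. The ZT0 values themselves are the same in both settings, since neither library is of ZT0. The 2 libraries were picked by their clock-gene times, so the calls of Dbp, Nr1d1, Nr1d2 and Nfil3 in this setting are not independent of that choice.

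Interferon-induced genes were lower at ZT0 as a group, with 1 call. All 24 measured had a negative difference, with a median of -0.60 beside -0.06 for all genes. In 18 the groups did not overlap, beside 15% of all genes for lower values and 4.3% for higher ones, 19 were at an unadjusted p under 0.05, beside 9.05%, and 1, Rsad2, was called. Isg15, a ubiquitin-like protein, was at 10.9, 12.0 and 10.05 FPKM in WT and 2.51, 5.18 and 4.76 FPKM in Liver-RE (-1.26 ± 0.31, adjusted p = 0.0773). Ifit1, which binds viral RNA, was at 6.14, 5.90 and 6.62 against 1.38, 3.29 and 2.67 FPKM (-1.11 ± 0.25, adjusted p = 0.0551). Cmpk2 was at 4.47, 4.40 and 4.50 against 1.72, 2.65 and 1.62 FPKM, and Irf7, a transcription factor of the response, at 16.3, 14.8 and 16.6 against 5.10, 10.5 and 8.86 FPKM. Over ZT4 to ZT20 the median of the list was -0.12, and Isg15 was at -0.01 there. Replicate 1 of Liver-RE was lowest: without it 12 genes were at an unadjusted p under 0.05, 0 were called by limma and the median was -0.50.

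The letters GAAA, then any 2 bases, then GAAA again, the core of interferon-stimulated response elements, were looked for after the group was seen. They were in 9 of 16 promoters of the list (56.2%) and in 3.86% of all 9061, on either strand and with overlaps counted. Isg15 (chr4:156200769-156201068, - strand) held 3 overlapping matches, Ifit1 (chr19:34640639-34640938, + strand) 2 and Rsad2 (chr12:26456403-26456702, - strand) 1. They are shown as 3 members with differences below -1, with the matches in capitals.

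Isg15 promoter: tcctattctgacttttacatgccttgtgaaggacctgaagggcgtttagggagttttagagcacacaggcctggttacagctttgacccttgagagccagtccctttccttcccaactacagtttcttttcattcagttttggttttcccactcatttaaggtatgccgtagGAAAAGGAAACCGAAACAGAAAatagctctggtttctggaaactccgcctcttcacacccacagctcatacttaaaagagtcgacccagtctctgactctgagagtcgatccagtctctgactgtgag

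Ifit1 promoter: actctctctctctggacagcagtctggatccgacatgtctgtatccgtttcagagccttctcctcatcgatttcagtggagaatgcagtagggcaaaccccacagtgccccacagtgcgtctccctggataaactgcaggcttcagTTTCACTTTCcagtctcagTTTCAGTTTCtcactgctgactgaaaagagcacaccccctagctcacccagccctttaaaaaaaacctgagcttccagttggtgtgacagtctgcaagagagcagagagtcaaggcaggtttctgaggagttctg

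Rsad2 promoter: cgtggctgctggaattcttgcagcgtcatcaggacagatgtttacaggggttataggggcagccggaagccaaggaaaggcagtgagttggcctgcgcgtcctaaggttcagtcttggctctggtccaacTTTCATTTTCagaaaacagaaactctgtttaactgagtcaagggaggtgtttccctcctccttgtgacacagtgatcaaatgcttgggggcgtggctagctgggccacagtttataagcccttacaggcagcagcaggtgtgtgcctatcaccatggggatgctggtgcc

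Liver plasma proteins of the acute phase had mostly negative differences. Of 18 measured, 16 had a negative difference, with a median of -0.66 beside -0.06 for all genes. At an unadjusted p under 0.05 were 9, all lower, beside 9.05% of all genes, and 0 were called by limma. Hp, which binds free hemoglobin, was at 1021, 879 and 757 FPKM in WT and 491, 487 and 542 FPKM in Liver-RE (-0.79 ± 0.23, adjusted p = 0.119). Fgg, the fibrinogen gamma chain, was at 1570, 2058 and 1666 against 1026, 1054 and 1207 FPKM (-0.68 ± 0.18, adjusted p = 0.0973). At ZT12 to ZT20 the Fgg means of Liver-RE were 1263 to 1450 FPKM and those of WT 1177 to 1322 FPKM. Markers of Kupffer cells, the resident macrophages of the liver, were mostly lower as well. Marco, a scavenger receptor, was at 12.9, 4.45 and 3.37 FPKM in WT and 1.09, 1.24 and 1.12 FPKM in Liver-RE (-1.69 ± 0.42, adjusted p = 0.0701), and C1qa, a complement subunit, at 44.8, 46.6 and 40.7 against 23.4, 34.7 and 24.98 FPKM. Liver-RE replicate 2 had the highest level of the 3 for C1qa, and its medians over the interferon and Kupffer lists, -0.39 and -0.12 from the WT mean, were nearest to WT. Hepatocyte markers had a median of -0.27, with 6 of 14 lower at an unadjusted p under 0.05 and 0 called. The part of Kupffer cells and of the hepatocyte share in the lower interferon and acute phase genes was not tested.

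Enzymes of fatty acid synthesis were higher in 2 of the 3 Liver-RE livers. Of 21 measured, 20 had a positive difference, with a median of 0.64 and 8 at an unadjusted p under 0.05, beside 2.52% of all genes, and 0 were called by limma. Acaca, the carboxylase that makes malonyl-CoA, was at 9.32, 23.4 and 16.5 FPKM in WT and 58.3, 54.5 and 23.5 FPKM in Liver-RE (1.40 ± 0.32, adjusted p = 0.0612). Me1, which supplies NADPH for the pathway, was at 21.4, 62.5 and 59.1 against 176, 212 and 88.8 FPKM (1.77 ± 0.45, adjusted p = 0.08). Scd1, a desaturase, was at 2448, 4080 and 3608 against 8717, 9624 and 3551 FPKM. Liver-RE replicate 3 was near the WT livers, and WT replicate 1 was lowest for all 3. Without Liver-RE replicate 3, Acaca rose by 1.81 (adjusted p = 0.00701) and Me1 by 2.14 (0.0374), and the list median was 1.10. That liver was singled out after seeing that it lay near WT, so larger rises follow from the choice and the p-values are only a description. Without WT replicate 1, 3 members were at an unadjusted p under 0.05 and the median was 0.41. Over ZT4 to ZT20 the difference of Acaca was 0.04. Of 23 genes of glycogen, glycolysis and gluconeogenesis 15 were positive and 0 called, with 7 higher at an unadjusted p under 0.05, beside 2.52% of all genes, among them Ugp2, which makes UDP-glucose, at 84.0, 107 and 91.9 against 176, 143 and 136 FPKM.

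Growth hormone signals reach the liver through STAT5 and drive Igf1 and its carrier Igfals, and the pattern of secretion sets the genes that differ between the sexes. All 12 measured genes of this axis had a negative difference (median -0.44), beside 7512 of all 11710 genes (median -0.06). At an unadjusted p under 0.05 were 6, beside 9.05% of all genes for lower values, and 0 were called by limma. Igf1 was at 71.8, 115 and 109 FPKM in WT and 25.9, 45.9 and 82.1 FPKM in Liver-RE (-1.05 ± 0.29, adjusted p = 0.104), and Igfals at 47.6, 80.1 and 71.9 against 17.4, 23.2 and 53.5 FPKM (-1.19 ± 0.31, adjusted p = 0.081). Socs2, a target of STAT5, was at 13.1, 19.1 and 10.8 against 1.42, 2.15 and 15.4 FPKM. Liver-RE replicate 3 was again nearest to WT. Without it Igf1 fell by 1.46 (adjusted p = 0.0101), Igfals by 1.65 (0.00694), Prlr, the prolactin receptor, by 1.14 (0.0101) and Socs2 by 2.44 (0.0479). That liver was singled out after seeing these values, so larger falls follow from the choice and the p-values are only a description. Over the other times the difference was -0.13 for Igf1 and -0.34 for Igfals.

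Female-biased liver genes had the lowest median of the lists, -1.16 over 23 measured, with 10 lower and 1 higher at an unadjusted p under 0.05, beside 9.05% and 2.52% of all genes, and 0 called by limma. Cyp2a4, a steroid hydroxylase, was at 325, 369 and 365 FPKM in WT and 56.6, 123 and 189 FPKM in Liver-RE (-1.67 ± 0.55, adjusted p = 0.203), without overlap. Of the 23 genes 6 were lower and 3 higher without overlap, beside 15% and 4.3% of all genes. Cyp3a44 was at 12.2, 113 and 112 against 0.994, 1.72 and 6.45 FPKM (-4.02 ± 1.05, adjusted p = 0.0877). Both were lower on average over the other times as well, by -1.67 ± 0.24 and -3.24 ± 0.47, which did pass. Cux2, a repressor found in female liver, was at 4.50, 3.72 and 5.69 against 0.375, 0.821 and 3.76 FPKM. The list median was -2.16 in Liver-RE replicate 1, -0.66 in replicate 2 and -0.34 in replicate 3, each from the WT mean. Of the 21 male-biased genes 9 were positive and 12 negative. Cyp2d9 was at 5.28, 22.9 and 17.8 FPKM in WT and 86.8, 53.9 and 36.1 FPKM in Liver-RE, and Serpina1e at 385, 355 and 125 against 9.92, 32.3 and 30.2 FPKM. These families hold near-identical copies, and how the counting split reads among them is not given in the sources used here.

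**Figure D5:**
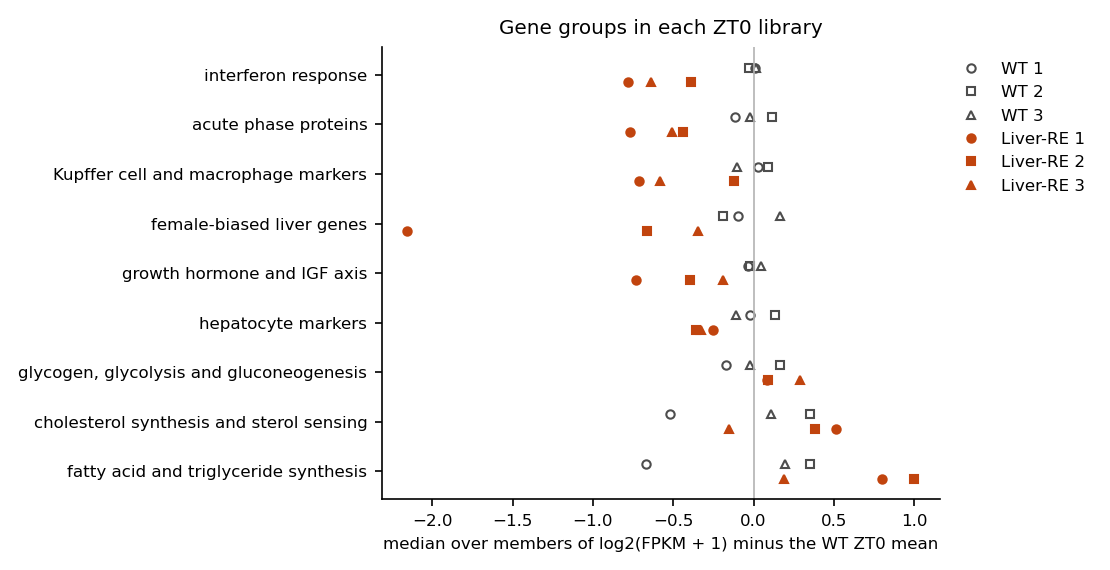
Median over the members of 9 gene lists of log2(FPKM + 1) minus the mean of the 3 WT livers, for each ZT0 liver; open grey symbols are WT and filled red symbols Liver-RE, by replicate number. The interferon list lies at -0.78, -0.39 and -0.64 in the 3 Liver-RE livers and at 0.01, -0.03 and 0.02 in the WT livers, while the fatty acid list of Liver-RE replicate 3, at 0.19, lies among the WT values of -0.67, 0.35 and 0.20.

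Smaller shifts were seen in other groups, each with 0 called by limma except for Cd36 among the lipid uptake genes. Genes of cholesterol synthesis and sterol sensing had a median of 0.23, beside -0.06 for all genes. Of 26, 20 were positive, beside 4198 of all 11710 genes, and 3 were higher at an unadjusted p under 0.05, beside 2.52%. In 4 of the 26 the Liver-RE livers were higher without overlap, beside 4.3% of all genes. By liver the list median, from the WT mean, was -0.52, 0.35 and 0.11 in WT and 0.51, 0.38 and -0.15 in Liver-RE, which overlap. The median was 0.21 for the 13 lipid uptake and droplet genes, 11 of them positive, and 0.14 for 26 genes of fatty acid oxidation, 19 of them positive. It was -0.24 for 15 glucocorticoid-responsive genes and -0.20 for 15 cell cycle genes, with 12 negative in each, and both lists hold Cdkn1a. Nearer to the median of all genes were 19 genes of NAD metabolism at 0.03, 11 of heme metabolism at 0.01, 13 antioxidant genes at 0.00 and 20 of the urea cycle and amino acids at -0.04 (0.01 after the rescaling).

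The medians given above for the interferon, acute phase, fatty acid synthesis, growth hormone, female-biased, Kupffer, stellate and hepatocyte lists kept their sign after quantile normalization and after the rescaling. Of 30 xenobiotic enzymes 4 were higher and 2 lower at an unadjusted p under 0.05, beside 2.52% and 9.05% of all genes. Ugt1a1, which conjugates bilirubin, was at 340, 286 and 265 FPKM in WT and 159, 148 and 249 FPKM in Liver-RE (adjusted p = 0.0612). Among 17 fasting and FOXO genes Cdkn1a, a cell cycle inhibitor, was at 6.10, 6.17 and 5.65 FPKM in WT and 2.09, 1.13 and 0.843 FPKM in Liver-RE (-1.60 ± 0.55, adjusted p = 0.227), and Irs2, an adaptor of insulin signalling, at 3.42, 5.15 and 8.96 against 2.66, 2.85 and 1.54 FPKM. In these 2 of the 17 the Liver-RE livers were lower without overlap, beside 15% of all genes for lower values. Cdkn1a was rhythmic in both genotypes with a peak shifted by -1.59 h in Liver-RE, and moving the WT curve by that much gave -0.43.

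Across the alternative settings, 12 of the 21 named genes lost their call in at most 5 of 46 or 47 settings, among them Timp3, Loxl4, Cx3cr1, Greb1l, Cd36, Enho and Gsn. The other 9, with Csad, Postn, Rsad2, Cpn2 and Tbc1d24 among them, lost it in up to 34. No called gene changed sign. With the 6 ZT0 libraries alone, 0 genes were called by limma, while 1428 were at an unadjusted p under 0.05, so each call rests on the spread that the other harvest times add. Leaving out Liver-RE replicate 3 of ZT0 raised the calls to 25 higher and 51 lower, 18 of the 23 among them, and leaving out WT replicate 3 of ZT0 lowered them to 2 and 4.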

How the data were processed

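Total RNA of whole liver was depleted of ribosomal RNA and sequenced as stranded single-end libraries, per the labels' protocols. The deposited table holds 1 value per gene and library with no unit named, and its values were taken as FPKM that the authors made by scaling read counts to gene length and depth, read from the steps between low values. CASAVA 1.8.2 is named in the submitters' processing notes, without a role, and the counter is not given in the sources used here. Depths are estimates from those steps. Groups were taken from the labels. Values were turned to log2(FPKM + 1), and limma 3.58.1 with a trend was fitted to 12 groups (36 libraries) and all 11710 genes with a mean of at least 0.5 FPKM at ZT0, so the ZT0 test shares its spread with the other times. The script was tested on simulated data. Rhythms were 24 h curves fitted to ZT4 to ZT20.

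Named genes were, per direction, the 12 with the largest change past the threshold without overlap, the leading 6 per class and direction, all clock genes and up to 4 per other list, without clone-named genes; 2 of those, Rfxank and Pdhb, and list members shown for their values, were added after values were seen. The members and lists were chosen with earlier results of these data known. Alternatives covered the pseudocount, filter, scaling, libraries used and each library left out. KO livers entered no test beyond 1 alternative. Results on some genes are not reported here.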

Additional observations from a re-analysis of the deposited data

Results flagged for a closer look

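Greb1l was the 1 gene whose Liver-RE minus WT difference at ZT0 departed from the average difference over ZT4 to ZT20 in limma, by -0.66 on log2(FPKM + 1) with an adjusted p of 0.0427. The difference was -0.67 at ZT0, -0.36 at ZT4 and 0.58 at ZT16, and all 3 Liver-RE livers lay under all 3 WT livers at ZT0. No gene passed this test in 22 of the 36 settings that leave out 1 library.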

How the results depend on the processing

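The main counts at ZT0 were 7 genes higher and 16 lower, 4 and 6 of them at all times, 0 of an earlier phase, 6 with a rhythm in WT alone and 1 departing from the other times. None of these counts was stable under every setting, and the cause was not tested. A pseudocount of 0.1 gave 4 higher, 9 lower, 2 with a WT rhythm alone and 0 departing, 13 in all. With no filter on low values 3 had a WT rhythm alone. A mean of at least 2 FPKM left fewer genes and gave 3 higher, 7 lower, 1 higher at all times, 2 with a WT rhythm alone and 0 departing. Quantile normalization gave 25 higher, 8 of them at all times, 1 of an earlier phase, 12 with a WT rhythm alone and 2 departing, and 43, 64, 84, 1123 and 971 genes against WT of ZT0, ZT4, ZT8, ZT16 and ZT20. Rescaling without the 20 highest genes gave 15 higher, 8 lower and 1 of an earlier phase. With the spread of all 54 libraries 19 were higher, 32 lower, 15 had a WT rhythm alone and 3 departed. Robust empirical Bayes left 3 with a WT rhythm alone, and the 6 ZT0 libraries alone 0 higher and 0 lower. The earlier-phase class held 2 genes when rhythms used all 18 libraries per genotype, 1 with the Liver-RE rhythm at an unadjusted p (then 2 with a WT rhythm alone) and 1 at a share of 0.25.

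Chosen after seeing the data, leaving out WT ZT8 replicate 2 and Liver-RE ZT20 replicate 1 gave 17 higher, 34 lower, 8 of an earlier phase, 14 with a WT rhythm alone and 20 departing. Leaving out Liver-RE ZT0 replicate 3 as well gave 31 higher, 52 lower, 7 and 13 at all times, 5 of an earlier phase, 19 with a WT rhythm alone and 15 departing.

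With 1 library left out at a time, 2 to 25 genes were higher and 4 to 52 lower, 1 to 8 and 2 to 13 at all times, 0 to 5 of an earlier phase, 2 to 26 with a WT rhythm alone and 0 to 8 departing. The lowest counts of higher and lower genes came without WT ZT0 replicate 3 and the highest without Liver-RE ZT0 replicate 3 (higher) and Liver-RE ZT8 replicate 1 (lower). Without WT ZT8 replicate 2 the earlier-phase and departing counts were highest.

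The labels do not say that replicate numbers pair the livers. The correlation of same-numbered deviations at ZT0 was -0.20, -0.05 and -0.15, and that of unlike-numbered ones ran from -0.16 to 0.25. Deviations from a mean of 3 are bound to one another, so these values cannot tell whether the livers were paired. With the replicate block 6 genes were higher, 15 lower, 3 and 4 at all times, 0 of an earlier phase, 4 with a WT rhythm alone and 1 departing. Values of single genes weakened below the threshold in 279 cases, passed it in 58 and reversed in 0. Depth limits the low genes: Mmp9 and Cx3cr1 lay at 0.120 to 0.236 FPKM in the WT livers at ZT0.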
